A study of Mus musculus with 6 samples.

Results

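Piwil2 and 8 genes of the small RNA pathways, namely Ago1, Ago2, Ago3, Drosha, Dgcr8, Xpo5, Dicer1 and Tarbp2, were followed through 6 RNA sequencing libraries of E0771, a line of mouse mammary carcinoma cells. They were taken by symbol from a table of 28063 genes. Of the 10 genes named for the set, 9 had a row, and Tdrkh, a partner of PIWI proteins, was not analysed here. The set is treated as selected on the measured levels of Piwil2 in these libraries, which were known when it was drawn up, so the differences of Piwil2 between groups are given as a description with no test.

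PIWI proteins and Argonautes form the 2 branches of 1 protein family. Argonautes (AGO) carry microRNAs (miRNAs), which are cut from hairpin precursors by Drosha with its partner Dgcr8 in the nucleus, exported by exportin-5 (Xpo5), cut again by Dicer1 with its partner Tarbp2, and loaded onto an AGO protein to silence matching mRNAs. PIWI proteins carry piRNAs, which need neither Drosha nor Dicer1 and which silence transposons in the germline. Piwil2, also called MILI in the mouse, is known mainly from the testis.

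There were 3 groups of 2 libraries: E0771 cells with a Malt1 form labelled as the PD mutant (Malt1_PD), with the wild-type form (Malt1_WT), or with a control vector (Vector). MALT1 is a protease and scaffold of NF-kB signalling, and the labels neither spell out PD nor say whether a population came from 1 clone or how Malt1 was driven. All 3 populations had first been held for 12 hours with activated CD8 T cells at 3 T cells per tumour cell, then rinsed, trypsinised and replated, with lysis 6 hours after replating. No library without T cells was analysed here.

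The libraries held 14045390 to 19962014 counts. Malt1 itself averaged 101 ± 6.92 CPM (read counts relative to the library total, scaled with TMM factors) in Malt1_PD, 74.7 ± 10.6 CPM in Malt1_WT and 27.6 ± 5.30 CPM in Vector (SD, n = 2 each), so it was highest where its expression was labelled. Of the mammary epithelial markers, Krt8 averaged 116 CPM over the 6 libraries and Epcam 7.24 CPM, while Cdh1 (0.298 CPM) and Krt18 (0.431 CPM) were near 0. The mesenchymal markers were mixed. Vim averaged 4110 CPM, Sparc 633, Twist1 124 and Zeb1 73.4, whereas S100a4 (1.93 CPM) and Fn1 (0.1 CPM) were low, and Cdh2 was not analysed here. Of 13 T cell markers, 10 had a row, none passed the filter on low counts, and their summed counts lay between 4 and 18 per library. The 6 myeloid markers summed to 15.4 and 15.5 CPM in Malt1_PD, 16.4 and 18.4 in Malt1_WT, and 22.6 and 19.7 CPM in Vector, mostly Cd14 (9.19 CPM on average), Cd68 (5.86) and Lyz2 (2.47), whereas Adgre1, Itgam, Csf1r and the leukocyte marker Ptprc averaged at most 0.307 CPM. The libraries of a group differed by gene length: the 958 longest genes, of at least 10135 nt, among 9573 well-measured genes took 12.0% and 11.9% of the counts in Malt1_PD replicates 1 and 2, 10.9% and 12.4% in Malt1_WT, and 9.65% and 12.6% in Vector. Results on long genes below are therefore also given without replicate 1 of Vector and of Malt1_WT, in which long genes took the smallest shares.

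Piwil2 (ENSMUSG00000033644.5, on the minus strand of chromosome 14 from 70372477 to 70429383 in GRCm38) was higher in both Malt1 populations than in Vector. Its level was 89.8 and 90.6 CPM in Malt1_PD, 93.6 and 101 in Malt1_WT, and 57.6 and 63.8 CPM in Vector. All 4 Malt1 libraries lay above both Vector libraries, and the lowest Malt1_PD value stood 26.0 CPM above the highest Vector value. The values rest on 1419 and 1524 counts in Malt1_PD, 1315 and 2031 counts in Malt1_WT, and 1023 and 1138 counts in Vector. In bulk RNA, fewer cells expressing a gene and less of its RNA per cell cannot be told apart.

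The fitted log2 fold change of Piwil2, from edgeR's quasi-likelihood model over all 6 libraries, was 0.57 ± 0.09 (standard error, SE) in Malt1_PD against Vector, a 1.49-fold difference. It was 0.68 ± 0.09 in Malt1_WT against Vector, a 1.61-fold difference. Both values use the same Vector libraries. Over 15 other ways of processing the counts, the first ranged from 0.50 to 0.65 and the second from 0.62 to 0.76. Malt1_WT held the highest level, Malt1_PD the next and Vector the lowest. The lowest Malt1_WT library lay 3.03 CPM above the highest Malt1_PD library. The libraries lay 7.68 CPM apart within Malt1_WT and 0.797 CPM apart within Malt1_PD. The log2 fold change of Malt1_PD against Malt1_WT was -0.11 ± 0.09, and this difference was not tested.

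**Figure D1:**
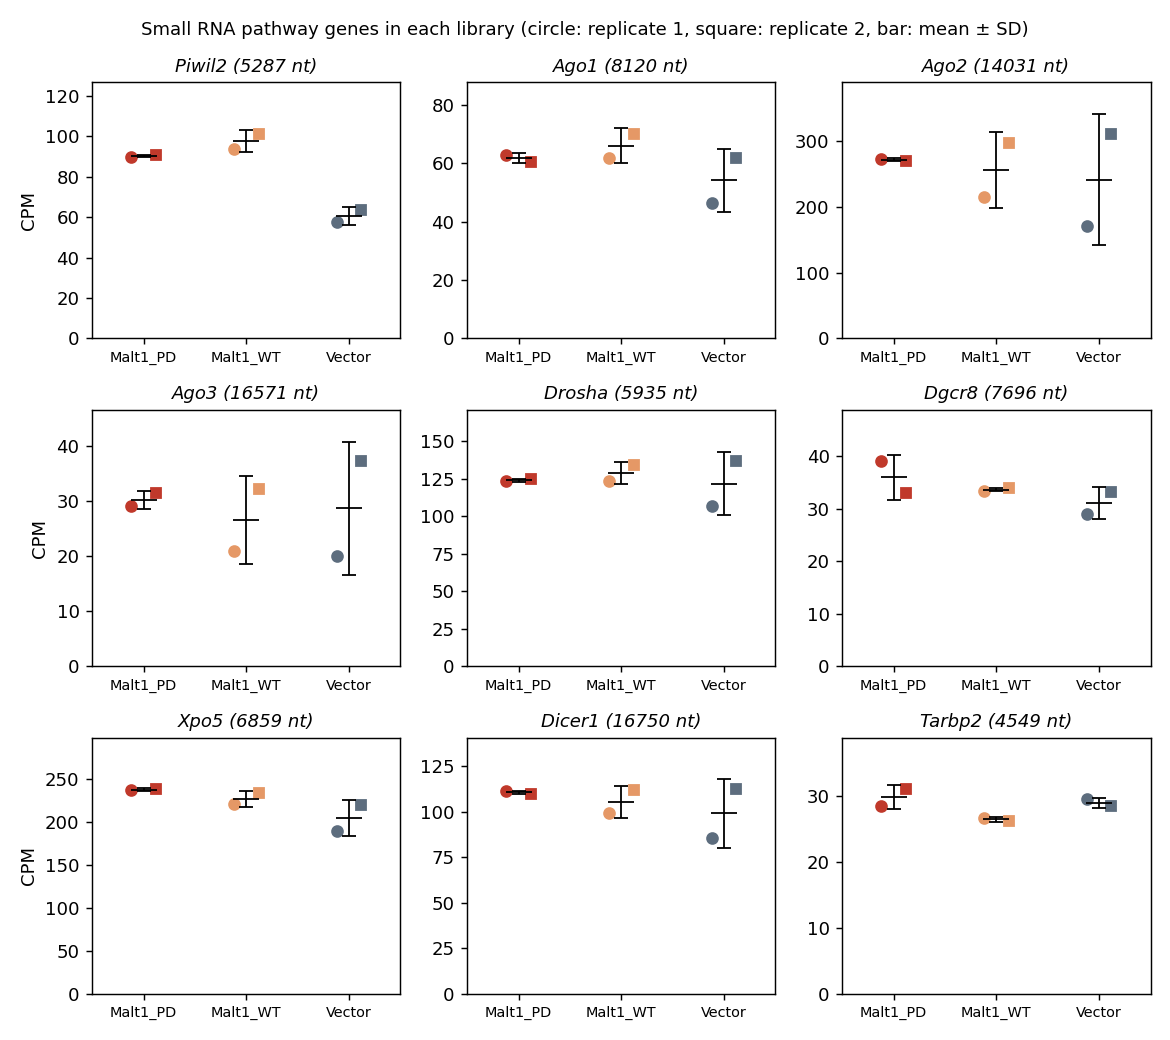
Level in CPM (y axis from 0) of the 9 measured genes in each library of Malt1_PD, Malt1_WT and Vector (x axis). Circles are replicate 1, squares replicate 2, and bars the mean ± SD of 2 libraries. For Piwil2 all 4 Malt1 libraries lie above the 2 Vector libraries, whereas Ago2 and Ago3 are lowest in Vector replicate 1 and highest in Vector replicate 2.

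Per length, Piwil2 averaged 15.7 RPKM (CPM per kilobase of gene length) over the 6 libraries, higher than 74.5% of the 14675 genes tested. Only 1 other PIWI gene had a row, Piwil4 (MIWI2 in the mouse, a nuclear PIWI protein of the fetal male germline), which averaged 3.39 RPKM. Piwil4 stood at 18.8 and 18.5 CPM in Malt1_PD, 18.2 and 17.6 in Malt1_WT, and 18.1 and 18.5 CPM in Vector. These 6 values span about 1 CPM, and Piwil4 was not called in any comparison (adjusted p = 0.962 in Malt1_PD against Vector and 0.973 in Malt1_WT against Vector, edgeR quasi-likelihood test, Benjamini-Hochberg adjusted). The RPKM of Piwil2 was 4.87 and 4.98 times that of Piwil4 in Malt1_PD, 5.23 and 5.88 times in Malt1_WT, and 3.25 and 3.51 times in Vector.

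Reads of Piwil2 and Piwil4 can be told apart by sequence. Their coding sequences, from GENCODE M21 transcripts, shared 50.3% of aligned bases, and their longest identical run was 14 bases, far below the read length of 150 bases. The 60 bases at which they are most alike, bases 2738 to 2797 of the Piwil2 coding sequence, still differ at 14 positions, shown here with capitals where Piwil4 departs from Piwil2:
Piwil2: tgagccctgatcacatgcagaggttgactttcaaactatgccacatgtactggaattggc
Piwil4: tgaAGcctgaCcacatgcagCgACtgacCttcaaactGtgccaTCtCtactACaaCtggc

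None of the genes beside Piwil2 on chromosome 14 was called. Slc39a14, a zinc transporter gene 21051 bases away, stood at 358 and 356 CPM in Malt1_PD, 349 and 371 in Malt1_WT, and 324 and 405 CPM in Vector. Polr3d, an RNA polymerase III subunit gene 9373 bases away, stood at 51.9 and 52.7 CPM in Malt1_PD, 57.5 and 54.9 in Malt1_WT, and 60.9 and 50.4 CPM in Vector. In both genes the Vector libraries enclose or overlap the Malt1 libraries. Of the nearest 3 protein-coding genes on each side, Phyhip had at most 2 counts per library, and the other 5 had log2 fold changes from -0.09 to 0.12 in Malt1_PD against Vector and from -0.02 to 0.06 in Malt1_WT against Vector. The 5 had no call in any comparison (lowest adjusted p = 0.747, edgeR quasi-likelihood test, Benjamini-Hochberg adjusted).

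Among 10579 well-measured genes, Slc6a8, which encodes the creatine transporter, followed Piwil2 most closely over the 6 libraries (Pearson r of log2 CPM = 0.998). It stood at 313 and 313 CPM in Malt1_PD, 312 and 328 in Malt1_WT, and 246 and 260 CPM in Vector. The next were Ppp1r10, which encodes a nuclear regulator of protein phosphatase 1, Klf4, a transcription factor gene (both r = 0.996), Col1a1, a collagen gene, and Il6ra, the interleukin-6 receptor gene (both r = 0.993). These correlations are over 6 libraries that share 3 groups, and with so many genes compared, high values are among those found by search. Of the other small RNA genes, Xpo5 had r = 0.815, Ago1 0.789, Dgcr8 0.620, Dicer1 0.557, Drosha 0.447, Ago2 0.424, Ago3 0.175 and Tarbp2 -0.405 with Piwil2. The value for Malt1 was 0.931.

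Within the Argonaute and PIWI family, the transcripts were mainly those of Ago2 and Piwil2. Per length, Piwil2 made up 33.1% and 33.6% of the summed RPKM of Ago1 to Ago4, Piwil2 and Piwil4 in Malt1_PD, 37.5% and 34.2% in Malt1_WT, and 30.9% and 24.3% in Vector. Ago2, the AGO protein of mammals that cuts target RNA, made up 38.0% and 37.8% in Malt1_PD, 32.5% and 37.8% in Malt1_WT, and 34.6% and 44.8% in Vector. The Piwil2 share was higher in all 4 Malt1 libraries than in either Vector library, while the Ago2 share was lowest in Malt1_WT replicate 1 and highest in Vector replicate 2. Ago1 took 14.6% to 16.3% of the sum, and Ago3, Ago4 and Piwil4 each took at most 9.53%.

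**Figure D2:**
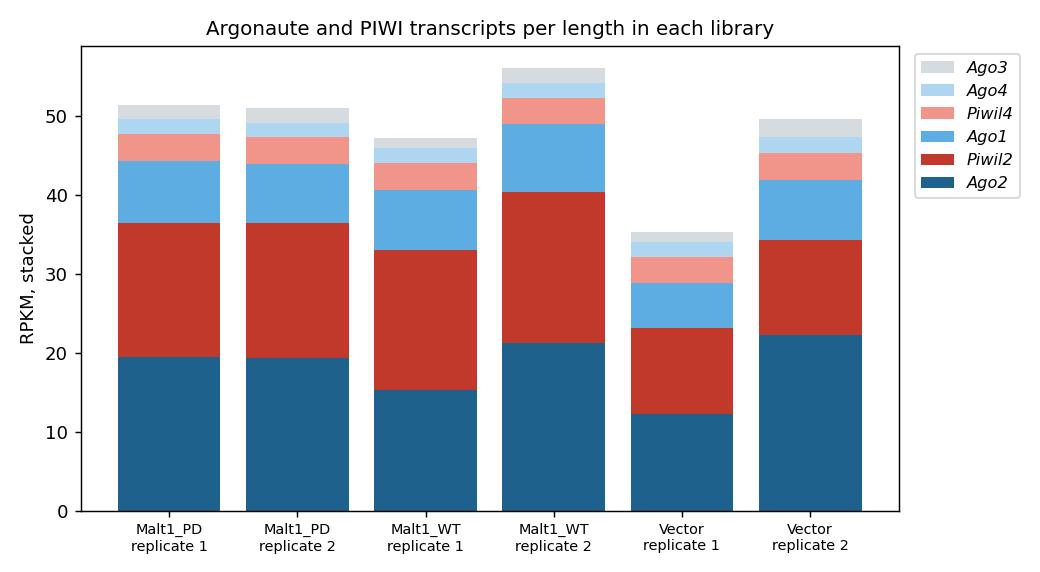
RPKM (y axis, stacked from 0) of 6 Argonaute and PIWI genes in each of the 6 libraries (x axis: Malt1_PD, Malt1_WT, Vector). The Piwil2 band is 17.0 to 19.2 RPKM tall in the 4 Malt1 libraries and 10.9 and 12.1 RPKM in the 2 Vector libraries, and the Ago2 band ranges from 12.2 RPKM in Vector replicate 1 to 22.2 RPKM in Vector replicate 2.

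The 4 AGO genes are alike in sequence, but only Ago1 and Ago3 share an identical run longer than a read. Their coding sequences shared 71.6% to 75.5% of aligned bases. Ago1 and Ago3, neighbours on chromosome 4, share an identical run of 170 bases, longer than a read, at bases 1402 to 1571 of the Ago1 and 1411 to 1580 of the Ago3 coding sequence, so a read lying inside it could come from either gene. The run is shown with the matching stretches of Ago2 and Ago4, in which capitals mark the 30 and 33 bases that depart from it:
Ago1 and Ago3: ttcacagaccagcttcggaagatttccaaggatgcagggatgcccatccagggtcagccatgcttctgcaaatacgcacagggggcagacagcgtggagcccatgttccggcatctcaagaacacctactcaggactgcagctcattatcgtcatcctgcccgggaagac
Ago2: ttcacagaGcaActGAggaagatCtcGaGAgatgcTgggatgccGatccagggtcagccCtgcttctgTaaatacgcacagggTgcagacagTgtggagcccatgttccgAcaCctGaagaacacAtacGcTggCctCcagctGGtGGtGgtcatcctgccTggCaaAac
Ago4: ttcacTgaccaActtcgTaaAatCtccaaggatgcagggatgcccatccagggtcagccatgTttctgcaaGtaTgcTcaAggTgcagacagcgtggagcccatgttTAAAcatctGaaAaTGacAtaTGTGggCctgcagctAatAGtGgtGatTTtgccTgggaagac
Next to the gene lengths of 8120 nt for Ago1 and 16571 nt for Ago3, this run is short.

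Ago1 (ENSMUSG00000041530.16, chromosome 4, 126435012 to 126468583) stood at 63.0 and 60.6 CPM in Malt1_PD, 61.9 and 70.3 in Malt1_WT, and 46.6 and 61.9 CPM in Vector. Vector replicate 1 was the low library, and Vector replicate 2 lay among the Malt1 libraries. The log2 fold change was 0.19 ± 0.14 in Malt1_PD against Vector and 0.29 ± 0.14 in Malt1_WT against Vector, and neither was called (adjusted p = 0.758 and 0.733, edgeR quasi-likelihood test, Benjamini-Hochberg adjusted).

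Ago2 (ENSMUSG00000036698.11, chromosome 15, 73095844 to 73184935) stood at 273 and 270 CPM in Malt1_PD, 215 and 297 in Malt1_WT, and 171 and 311.5 CPM in Vector. The Vector libraries enclosed all 4 Malt1 libraries. Ago3 (ENSMUSG00000028842.15, chromosome 4, 126331704 to 126429556) had the same pattern at a lower level, with 29.0 and 31.4 CPM in Malt1_PD, 20.9 and 32.2 in Malt1_WT, and 20.1 and 37.2 CPM in Vector. The log2 fold changes against Vector were 0.17 ± 0.25 (Malt1_PD) and 0.09 ± 0.25 (Malt1_WT) for Ago2, and 0.08 ± 0.28 (Malt1_PD) and -0.10 ± 0.28 (Malt1_WT) for Ago3, each smaller than its SE. Ago4, which is not in the set, stood between 12.4 and 14.2 CPM in all 6 libraries. Chrac1, a gene with up to 412 counts per library, overlaps Ago2 on the other strand, and the strand setting of the counting is not given in the sources used here.

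The first cut of a miRNA precursor is made by Drosha and Dgcr8. Drosha (ENSMUSG00000022191.16, chromosome 15, 12824815 to 12935291) stood at 123 and 125 CPM in Malt1_PD, 124 and 134 in Malt1_WT, and 107 and 137 CPM in Vector, so the Vector libraries lay outside the others on both sides. Dgcr8 (ENSMUSG00000022718.12, chromosome 16, 18253948 to 18289246) stood at 39.1 and 33.0 CPM in Malt1_PD, 33.4 and 33.9 in Malt1_WT, and 29.0 and 33.2 CPM in Vector. Dgcr8 was lowest in Vector replicate 1, and Vector replicate 2 lay beside Malt1_PD replicate 2. The log2 fold changes of Dgcr8 against Vector were 0.21 ± 0.12 in Malt1_PD and 0.11 ± 0.12 in Malt1_WT. Trmt2a, with up to 908 counts per library, overlaps Dgcr8 on the other strand, so its reads may be part of the Dgcr8 counts.

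Xpo5 (ENSMUSG00000067150.6, chromosome 17, 46202782 to 46243598), the export factor, was the most abundant gene of the set per length, at 32.6 RPKM over the 6 libraries. It stood at 237 and 239 CPM in Malt1_PD, 220.5 and 233 in Malt1_WT, and 190 and 219.9 CPM in Vector. All 4 Malt1 libraries lay above both Vector libraries, by less than 1 CPM at the nearest pair. The log2 fold change against Vector was 0.21 ± 0.09 in Malt1_PD and 0.15 ± 0.09 in Malt1_WT, and Xpo5 was not called in either (adjusted p = 0.576 and 0.803, edgeR quasi-likelihood test, Benjamini-Hochberg adjusted).

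Dicer1 (ENSMUSG00000041415.10, chromosome 12, 104687742 to 104751952) stood at 111 and 110 CPM in Malt1_PD, 99.3 and 112 in Malt1_WT, and 85.5 and 113 CPM in Vector. Tarbp2 (ENSMUSG00000023051.11, chromosome 15, 102518192 to 102523676), at 4549 nt the shortest gene of the set, stood at 28.5 and 31.02 CPM in Malt1_PD, 26.6 and 26.1 in Malt1_WT, and 29.4 and 28.4 CPM in Vector. Dicer1 was lowest in Vector replicate 1 and next lowest in Malt1_WT replicate 1, while Tarbp2 was lowest in the 2 Malt1_WT libraries. The log2 fold change of Tarbp2 in Malt1_PD against Malt1_WT was 0.17 ± 0.10 (adjusted p = 1.0, edgeR quasi-likelihood test, Benjamini-Hochberg adjusted).

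By RPKM over the 6 libraries the order was Xpo5 (32.6), Drosha (21.02), Ago2 (18.3), Piwil2 (15.7), Ago1 (7.47), Dicer1 (6.27), Tarbp2 (6.23), Dgcr8 (4.37) and Ago3 (1.72). Piwil2 was above Ago2 in Malt1_WT replicate 1 and below it in the other 5 libraries. Dicer1 and Tarbp2 differed by less than their spread. Gene length in the deposited table sets these values, and it counts bases of all transcripts of a gene, so an RPKM here understates a gene that uses a short transcript.

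**Figure D3:**
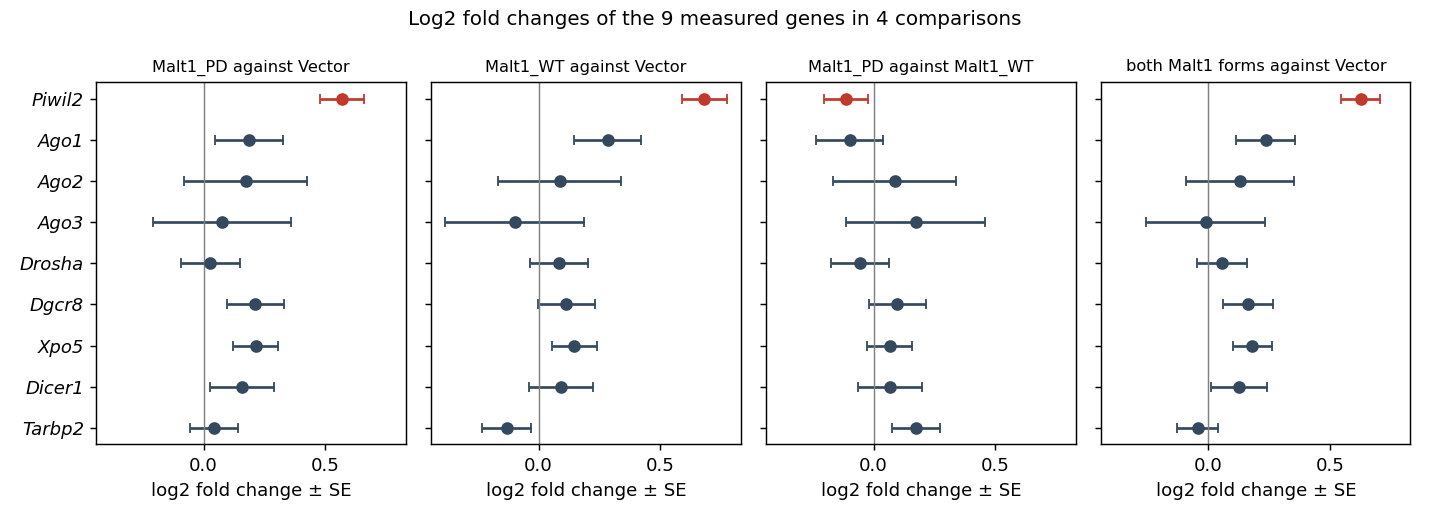
Log2 fold change ± SE (x axis) of the 9 measured genes (y axis) in 4 comparisons, 1 per panel, with the first-named group over the second. The points of Piwil2, shown as a description, lie between 0.57 and 0.68 in the panels against Vector, and the other 8 genes lie between -0.13 and 0.29 in those panels.

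Malt1_PD was compared with Vector, Malt1_WT with Vector, the mutant with the wild-type form, and both forms together with Vector. Separate cultures are not stated for the libraries within a group, so the spread behind each p-value may be only technical. In Malt1_PD against Vector, 0 of the 8 tested genes other than Piwil2 were called at an adjusted p under 0.05 by edgeR's quasi-likelihood test, where 0.00681% of all 14675 genes were. At an unadjusted p under 0.05 it was 1 of 8, Xpo5, against 8.61% of all genes. In Malt1_WT against Vector, 0 of 8 were called, against 0.00681% of all genes, and 0 of 8 had an unadjusted p under 0.05, against 7.09%. Malt1 itself, 2.71-fold higher there, was not called either (adjusted p = 0.092, edgeR quasi-likelihood test, Benjamini-Hochberg adjusted). It was called in Malt1_PD against Vector (adjusted p = 0.0265, same test). The lack of a call therefore does not mean that a gene was unchanged. In Malt1_PD against Malt1_WT, 0 of 8 were called, against 0.00681%, and 0 of 8 had an unadjusted p under 0.05, against 1.92%. For both forms against Vector, 0 of 8 were called, against 0.0273%, and 0 of 8 had an unadjusted p under 0.05, against 9.85%. DESeq2 and limma-voom also called 0 of 8 in each of the 4 comparisons. Adjusted p-values of the 8 genes ran from 0.576 to 0.969 in the first comparison and from 0.516 to 0.990 in the last, with Benjamini-Hochberg adjustment in edgeR.

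The 8 genes were also counted by whether the libraries of 2 groups overlapped. In Malt1_PD against Vector, 1 of 8 had every Malt1_PD library higher (Xpo5), against 18.4% of all genes, and 0 had every one lower, against 19.7%. In Malt1_WT against Vector, 2 of 8 were higher in this sense (Dgcr8 and Xpo5), against 15.5%, and 1 was lower (Tarbp2), against 17.1%. In Malt1_PD against Malt1_WT, 2 of 8 were higher (Tarbp2 and Xpo5), against 16%, and 0 lower, against 16.1%. For both forms against Vector, 1 of 8 was higher (Xpo5), against 9.74%, and 0 lower, against 10.8%. Piwil2 was higher in both comparisons of a single form with Vector, and lower in Malt1_PD than in Malt1_WT.

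The values of the longest genes of the set turned on single libraries. Ago2 (14031 nt), Ago3 (16571 nt) and Dicer1 (16750 nt) were lower in replicate 1 than in replicate 2 of Vector by log2 differences of -0.87, -0.89 and -0.40, and of Malt1_WT by -0.47, -0.62 and -0.17. In Malt1_PD the same differences were 0.02, -0.11 and 0.02. For Piwil2, at 5287 nt, they were -0.01 in Malt1_PD, -0.11 in Malt1_WT and -0.15 in Vector. Across 9573 genes, which are not independent replicates, Spearman's rho of the replicate difference with gene length was 0.05 in Malt1_PD, -0.53 in Malt1_WT and -0.67 in Vector.

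**Figure D4:**
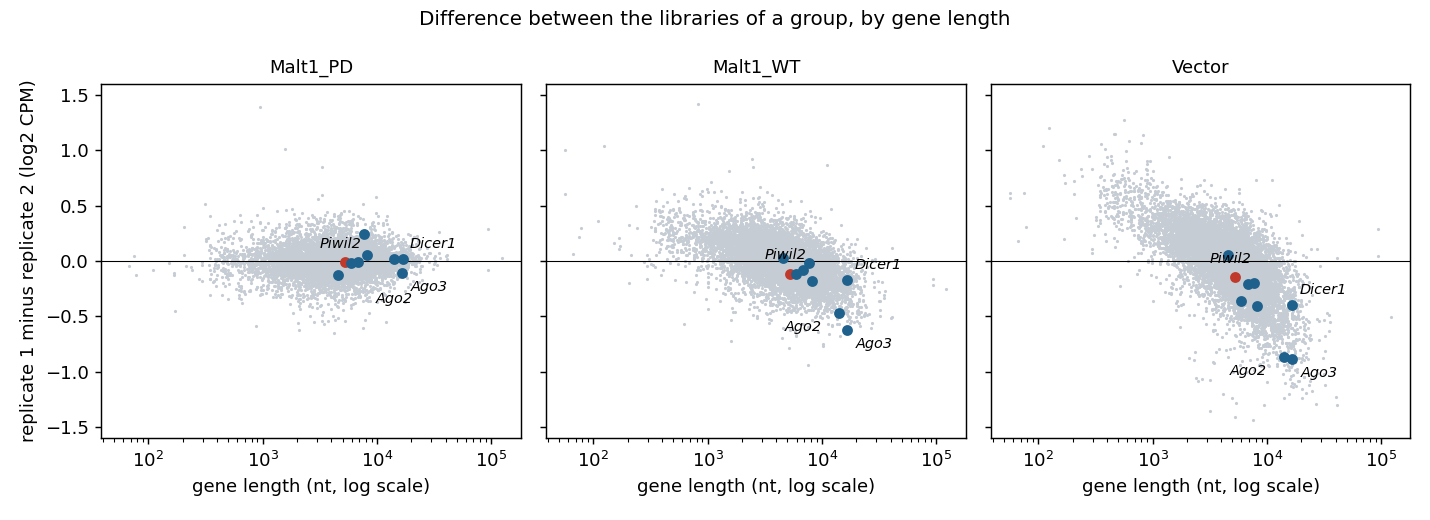
Difference between replicate 1 and replicate 2 (log2 CPM, y axis) against gene length (nt, log scale, x axis) for 9573 genes (grey) in Malt1_PD, Malt1_WT and Vector, with Piwil2 in red and the other 8 genes of the set in blue. Ago2 and Ago3 lie at -0.87 and -0.89 in Vector and near 0 in Malt1_PD.

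Leaving out 1 library moved the calls. Without Vector replicate 2, so with the library low on long genes as the only Vector library, edgeR called 4 of 8 genes in Malt1_PD against Vector, all higher (Ago1, Ago2, Dicer1 and Xpo5), where 5.89% of all genes were called. It called 2 of 8 in Malt1_WT against Vector, both higher (Ago1 and Ago2), where 3.58% of all genes were called, and 4 of 8 for both forms (7.75% of all genes). Ago2 then had a log2 fold change of 0.67 in Malt1_PD. Without Vector replicate 1 and Malt1_WT replicate 1, Ago2 was instead lower in Malt1_PD than in Vector by a log2 fold change of -0.19 and Ago3 by -0.30, and these 2 of 8 were called, against 14.2% of all genes. For both forms that fit called 1 of 8, Ago2 at -0.13, against 12% of all genes. The spread in that fit comes only from the Malt1_PD pair. Piwil2 kept log2 fold changes of 0.50 to 0.76 against Vector under these and all other alternatives. Whether gene length or another feature of the libraries makes the difference was not tested.

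Of 25 genes of miRNA biogenesis, which include Drosha, Dgcr8, Xpo5, Dicer1 and Tarbp2 of the set, 24 were tested and 0 were called in each of the 4 comparisons by edgeR, DESeq2 and limma-voom. At an unadjusted p under 0.05 in edgeR it was 1 of 24 in Malt1_PD against Vector (8.61% of all genes), 1 in Malt1_WT against Vector (7.09%), 0 in Malt1_PD against Malt1_WT (1.92%) and 1 for both forms (9.85%). Without Vector replicate 2, 5 of 24 were called for both forms, all higher (Ddx17, Dicer1, Fmr1, Tut7 and Xpo5), against 7.75% of all genes, and without Vector replicate 1 and Malt1_WT replicate 1 it was 3 higher and 1 lower (Adar, Fmr1, Safb and Srsf3), against 12%. The median log2 fold change of the list was 0.04 in Malt1_PD and 0.05 in Malt1_WT, where that of all genes tested was -0.0011 and -0.0012. Fmr1, which encodes the RNA-binding protein lost in fragile X syndrome, had the smallest p for both forms. It stood at 150 and 148 CPM in Malt1_PD, 147 and 155 in Malt1_WT, and 122 and 137 CPM in Vector, with a log2 fold change of 0.21 ± 0.08 for both forms (adjusted p = 0.436, edgeR quasi-likelihood test, Benjamini-Hochberg adjusted). Ddx17, an RNA helicase of the Drosha complex, stood at 413 and 414.5 CPM in Malt1_PD, 372.5 and 418 in Malt1_WT, and 324 and 386 CPM in Vector, where the groups overlapped between Malt1_WT and Vector.

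Of 31 genes of the miRNA effector complex, which deadenylates, decaps and represses target mRNAs, 30 were tested and 0 were called in each of the 4 comparisons by edgeR, DESeq2 and limma-voom. At an unadjusted p under 0.05 in edgeR it was 3 of 30 in Malt1_PD against Vector (8.61% of all genes), 3 in Malt1_WT against Vector (7.09%), 0 in Malt1_PD against Malt1_WT (1.92%) and 4 for both forms (9.85%), shares near those of the table. Pabpc1, the main cytoplasmic poly(A)-binding protein gene, stood at 2957 and 3014 CPM in Malt1_PD, 3006 and 3056 in Malt1_WT, and 3398 and 3464 CPM in Vector. All 4 Malt1 libraries were below both Vector libraries, with a log2 fold change of -0.19 ± 0.05 for both forms (adjusted p = 0.270, edgeR quasi-likelihood test, Benjamini-Hochberg adjusted). Mov10, an RNA helicase bound to AGO proteins, stood at 85.8 and 88.5 CPM in Malt1_PD, 90.2 and 96.4 in Malt1_WT, and 98.0 and 115.9 CPM in Vector. Ajuba, a LIM domain protein gene of the AGO complex, stood the other way, at 35.05 and 33.6 CPM in Malt1_PD, 34.0 and 35.1 in Malt1_WT, and 27.1 and 29.6 CPM in Vector. The calls in this list turned on the Vector libraries. Without Vector replicate 2, 5 of 30 were called higher and 1 lower for both forms (Cnot1, Dcp2, Pabpc1, Tnrc6a, Tnrc6b and Tnrc6c), against 7.75% of all genes. Without Vector replicate 1 and Malt1_WT replicate 1, 3 of 30 were called, all lower (Cnot6l, Mov10 and Pabpc1), against 12% of all genes, and without Vector replicate 1 alone only Mov10 was (1.14% of all genes). The same pair of libraries left out gave 7 of 30 called lower in Malt1_PD against Vector (14.2% of all genes), 2 lower in Malt1_WT against Vector (6.36%) and 2 lower in Malt1_PD against Malt1_WT (2.39%). With the length trend removed, Pabpc1 was called for both forms, against 1.4% of all genes.

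Of 14 genes that tail, trim or degrade small RNAs, 13 were tested and 0 were called in each of the 4 comparisons by edgeR, DESeq2 and limma-voom, with 0 at an unadjusted p under 0.05 in edgeR, where 1.92% to 9.85% of all genes were. The fit without Vector replicate 1 and Malt1_WT replicate 1 leaves 1 library in each of those groups. Its calls, given for the lists above, are not counted for this list, so the 0 does not cover that fit. The list median there was 0.012 in Malt1_PD against Vector and 0.0098 for both forms. With all 6 libraries, log2 fold changes of the 13 genes lay between -0.11 and 0.19 in Malt1_PD against Vector. In Malt1_WT against Vector they lay between -0.13 and 0.14. Parn, a 3' exonuclease that deadenylates RNA, had the smallest p for both forms, at -0.12 ± 0.08.

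Most partners that Piwil2 is known to work with in the germline were near 0 in these cells. Of 32 piRNA pathway partners, 22 had a row, and 13 of these fell below the filter with at most 31 counts in all 6 libraries together. Ddx4, the germline RNA helicase, had 0 and 1 counts in Malt1_PD, 0 and 0 in Malt1_WT, and 1 and 0 in Vector. Mov10l1, a helicase needed to make piRNAs, had 0 and 3 counts in Malt1_PD, 0 and 1 in Malt1_WT, and 0 and 0 in Vector. Henmt1, which methylates piRNA ends, had 0 and 1 counts in Malt1_PD, 4 and 1 in Malt1_WT, and 0 and 1 in Vector. A count of 3 in a library, taken as the floor, equals 0.1503 to 0.2136 CPM before TMM scaling, and covers counting error only.

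Among the 9 partners that passed the filter, 0 were called in each of the 4 comparisons by edgeR, DESeq2 and limma-voom, with 1 of 9 in each comparison at an unadjusted p under 0.05 in edgeR, where 1.92% (Malt1_PD against Malt1_WT) to 9.85% (both forms) of all genes were. Prmt5, the methyltransferase whose marks Tudor proteins bind on PIWI proteins and which is also used outside the germline, averaged 41.7 RPKM over the 6 libraries, with a log2 fold change of 0.01 in Malt1_PD and -0.03 in Malt1_WT. Tdrd7, a Tudor domain gene, averaged 13.99 RPKM. Tdrd3, another Tudor domain gene, stood at 19.99 and 17.7 CPM in Malt1_PD, 16.5 and 19.05 in Malt1_WT, and 15.1 and 15.0 CPM in Vector, with no overlap between Malt1 and Vector libraries. Its log2 fold change for both forms was 0.28 ± 0.11 (adjusted p = 0.476, edgeR quasi-likelihood test, Benjamini-Hochberg adjusted). Spocd1, a nuclear partner of Piwil4 in DNA methylation, stood at 4.43 and 3.33 CPM in Malt1_PD, 2.63 and 3.44 in Malt1_WT, and 3.94 and 5.94 CPM in Vector, where Malt1_PD overlapped Vector. Without Vector replicate 1 and Malt1_WT replicate 1 its log2 fold change was -0.61 in Malt1_PD and -0.78 in Malt1_WT against Vector. Without Vector replicate 2 it was -0.03 in Malt1_PD and -0.36 in Malt1_WT. Calls of these fits, with 1 Vector library, are not counted for this list, so the 0 above does not cover them.

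Of 38 germline and meiosis genes, 24 had a row and 6 were tested, and edgeR on all 6 libraries and limma-voom called 0 of them in each of the 4 comparisons. DESeq2 called 1, Tex19.1, in Malt1_WT against Vector (0.211% of all genes) and for both forms (0.545%). At an unadjusted p under 0.05 in edgeR it was 3 of 6 in Malt1_PD (8.61% of all genes), 2 in Malt1_WT (7.09%), 0 between the forms (1.92%) and 3 for both forms (9.85%). The counts against Vector include Tex101, which passed the filter only through the Malt1 groups. Tex19.1, a gene of germ cells and placenta that helps restrain retrotransposons, stood at 48.3 and 44.6 CPM in Malt1_PD, 52.0 and 50.6 in Malt1_WT, and 36.2 and 31.9 CPM in Vector. As for Piwil2, all 4 Malt1 libraries were above both Vector libraries. Its log2 fold change was 0.45 ± 0.10 in Malt1_PD against Vector, 0.59 ± 0.10 in Malt1_WT against Vector and 0.52 ± 0.09 for both forms (adjusted p = 0.0985 for both forms, edgeR quasi-likelihood test, Benjamini-Hochberg adjusted). Other ways of processing the counts did call Tex19.1. For both forms it was called in 7 of 14, with log2 fold changes of 0.43 to 0.62 over the 14. The 7 were DESeq2, no filter (0.909% of all genes called), the replicate block (adjusted p = 0.0408, edgeR, 0.354% of all genes), the length trend removed (1.4%), without Vector replicate 1, without Vector replicate 2, and without Vector replicate 1 and Malt1_WT replicate 1. In Malt1_PD against Vector it was called in 4 of 14, which were no filter (0.67% of all genes), the length trend removed (0.593%), without Vector replicate 1 (0.477%), and without Vector replicate 1 and Malt1_WT replicate 1 (14.2%). In Malt1_WT against Vector it was called in 6 of 14, the same 4 (0.403%, 0.375%, 0.266% and 6.36% of all genes) and DESeq2 and without Vector replicate 2 (3.58%).

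Tex101, a germ cell surface glycoprotein gene, was at a few counts: 31 and 22 in Malt1_PD, 18 and 32 in Malt1_WT, and 6 and 7 in Vector. The groups did not overlap, and the log2 fold change for both forms was 2.05 ± 0.41 (adjusted p = 0.154, edgeR quasi-likelihood test, Benjamini-Hochberg adjusted). Tex101 passed the filter only through the Malt1 groups, where it is high, so these values are a description. Asking for at least 10 counts in every library removed it. With no filter Tex101 was called for both forms (0.909% of all genes called), in Malt1_PD against Vector (0.67%) and in Malt1_WT against Vector (0.403%). With the length trend removed it was called for both forms only (1.4% of all genes). Its other calls came from fits that left 1 library in a group. Over the 13 other ways of processing that tested it, its log2 fold change for both forms was 1.89 to 2.19. Prdm9, the gene of the meiotic recombination factor, had 31 and 42 counts in Malt1_PD, 33 and 33 in Malt1_WT, and 23 and 23 in Vector. Gfra1 had 2 and 15 counts in Malt1_PD, 5 and 5 in Malt1_WT, and 9 and 12 in Vector. Its log2 fold change for both forms was -0.58 ± 0.66. Of the 6 tested genes of this list, 3 had log2 fold changes above 0 and 3 below 0 for both forms. The defining germ cell markers Ddx4, Dazl, Sycp3 and Stra8 had mean levels of 0.0193, 0.00831, 0.0292 and 0.0643 CPM over the 6 libraries, at or near 0, and Sycp1 and Mael were not analysed here.

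**Figure D5:**
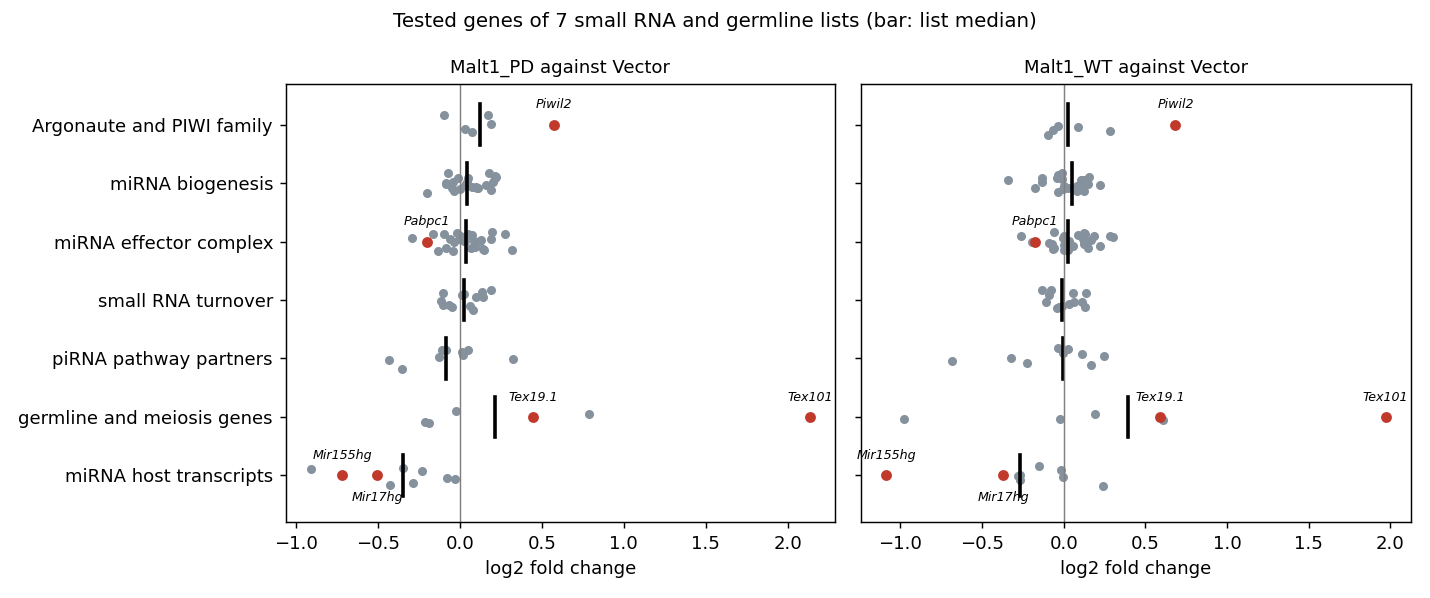
Log2 fold change (x axis) of each tested gene of 7 lists (y axis) in Malt1_PD against Vector (left) and Malt1_WT against Vector (right), with a bar at each list's median. The miRNA host transcripts have medians of -0.35 and -0.27, and the genes in red are those described in the text, from Tex101 at 2.14 and 1.97 down to Mir155hg at -0.72 and -1.09.

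None of the transcripts from which miRNAs are cut was called, and most had log2 fold changes below 0 against Vector. Of 19 host transcripts, 12 had a row and 9 were tested, and 0 were called in each of the 4 comparisons by edgeR, DESeq2 and limma-voom, with 1 of 9 in Malt1_PD (8.61% of all genes), 1 in Malt1_WT (7.09%), 0 between the forms (1.92%) and 2 for both forms (9.85%) at an unadjusted p under 0.05 in edgeR. The 1 in Malt1_WT, also among the 2 for both forms, was Mir155hg, which needed its Vector libraries, where it was highest, to pass the filter. In Malt1_PD against Vector 9 of 9 log2 fold changes were below 0, with a median of -0.35, and in Malt1_WT against Vector 8 of 9, with a median of -0.27, where the median of all genes tested was -0.0011 and -0.0012. With at least 10 counts in every library, which removed Mir155hg, it was 7 of 7 in Malt1_PD and 6 of 7 in Malt1_WT. The size of the median turned on single libraries and, in Malt1_WT against Vector, also on the filter and the test used. In Malt1_WT against Vector it was -0.065 without Malt1_WT replicate 2 (7 of 9 below 0), -0.14 without Vector replicate 1, -0.15 with at least 10 counts in every library, -0.16 with limma-voom and -0.17 with no filter. It was -0.18 there without Vector replicate 1 and Malt1_WT replicate 1. In Malt1_PD against Vector it was -0.23 without Vector replicate 1, and for both forms it lay between -0.28 and -0.14 over 14 alternatives, against -0.22 in the fit of all 6 libraries. The list holds hosts used by immune cells, Mir155hg and Mir142hg. The summed myeloid markers given above were also lower in the Malt1 libraries than in Vector, and their part in these values was not tested. Mir142hg had a log2 fold change of -0.43 in Malt1_PD and 0.24 in Malt1_WT against Vector. Mature miRNAs were not measured in these libraries.

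Mir17hg hosts the miR-17 cluster on chromosome 14, whose members are known to promote proliferation. It stood at 8.10 and 6.06 CPM in Malt1_PD, 7.26 and 8.18 in Malt1_WT, and 10.8 and 9.24 CPM in Vector. All 4 Malt1 libraries were below both Vector libraries, with a log2 fold change of -0.44 ± 0.16 for both forms (adjusted p = 0.441, edgeR quasi-likelihood test, Benjamini-Hochberg adjusted). The miRNAs of this transcript fall into groups by their seed, bases 2 to 8, which pairs with target mRNAs and is in capitals here. The sequences are RefSeq's, with build GRCm38.p6, and show which seeds this host carries:
miR-17-5p: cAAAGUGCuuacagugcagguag
miR-20a-5p: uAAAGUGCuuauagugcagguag
miR-18a-5p: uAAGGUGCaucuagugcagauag
miR-19a-3p: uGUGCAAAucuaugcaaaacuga
miR-19b-3p: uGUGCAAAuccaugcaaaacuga
miR-92a-3p: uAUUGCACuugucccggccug
The seed of miR-17-5p and miR-20a-5p is also that of miR-93-5p and miR-106b-5p, which lie within Mcm7, a replication helicase gene. Mcm7 averaged 62.4 RPKM over the 6 libraries and had log2 fold changes of -0.03 in Malt1_PD and -0.01 in Malt1_WT against Vector.

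Mir155hg hosts miR-155, a regulator of immune cells, and was at a few counts: 13 and 8 in Malt1_PD, 7 and 10 in Malt1_WT, and 17 and 21 in Vector. It needed its Vector libraries to pass the filter, so its values are a description. Mir22hg, the host of miR-22, stood at 13.2 and 13.2 CPM in Malt1_PD, 16.4 and 11.8 in Malt1_WT, and 18.3 and 15.3 CPM in Vector, so Malt1_WT overlapped Vector. Dleu2, the host of miR-15a and miR-16, which share a seed, stood at 13.4 and 12.8 CPM in Malt1_PD, 15.3 and 13.6 in Malt1_WT, and 16.7 and 15.4 CPM in Vector. The log2 fold changes for both forms were -0.90 ± 0.38 for Mir155hg, -0.31 ± 0.15 for Mir22hg and -0.22 ± 0.11 for Dleu2, with adjusted p-values of 0.500, 0.565 and 0.569 (edgeR quasi-likelihood test, Benjamini-Hochberg adjusted). Their miRNAs, with the seed in capitals, carry 3 seeds other than those of the cluster above:
miR-155-5p: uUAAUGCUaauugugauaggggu
miR-22-3p: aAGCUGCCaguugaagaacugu
miR-15a-5p: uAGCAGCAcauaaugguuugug
miR-16-5p: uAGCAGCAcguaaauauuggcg
Dleu2, at 11334 nt, is long, and its replicate 1 values were not below those of replicate 2 in Malt1_WT or Vector.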

How the data were processed

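Total RNA of E0771 cells was used for directional libraries with paired reads of 150 bases (per the labels' protocols). The authors deposited whole-number counts per gene, not normalised, beside log2 RPKM columns of the same table, of which the Malt1_PD pair could be recomputed from the counts and gene lengths within 4.96e-09 and 4 further per-sample columns were not used. Per the submitters' processing notes, the tools named are featureCounts 1.6.3, STAR 2.7.3a and Trim Galore 0.6.0, with build GRCm38.p6, and the strand setting is not given in the sources used here. A spreadsheet had turned 25 symbols into dates, which were restored from the identifiers. Coordinates and coding sequences come from GENCODE M21.

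Genes kept by edgeR's filterByExpr (14675 of 28063) went into a fit by edgeR 4.0.16 under R 4.3.3 (TMM factors, quasi-likelihood test, 1 mean per group, all 6 libraries), with Benjamini-Hochberg adjustment over all genes tested and calls at an adjusted p under 0.05. The coefficient of variation between libraries was 10.1%. RPKM are CPM divided by the deposited gene length. Alternatives were DESeq2 1.42.0 (size factors, Wald test), limma-voom (limma 3.58.1), other filters, a replicate block, a length trend removed, only the groups compared and each library left out; leaving out Vector replicate 1 with Malt1_WT replicate 1 was added after seeing the data. Each test was checked on simulated counts with the same spread for every gene and no trend by gene length. That check does not cover the length differences between these libraries.

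The genes of the set and the gene lists were chosen with earlier results of these data known. Named were all genes of the set, Malt1, up to 4 tested genes of each list with the smallest p for both forms against Vector, the 5 genes most correlated with Piwil2, and the 3 protein-coding genes on each side of it. Drosha, Dgcr8, Xpo5, Dicer1 and Tarbp2 also stand in the biogenesis list, and Prmt5, Tdrd7, Ddx4, Mov10l1, Henmt1, Mcm7, Mir142hg and the list genes called only under an alternative were named after their values were seen.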

Additional observations from a re-analysis of the deposited data

How the results depend on the processing

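Over the alternatives, Piwil2 had log2 fold changes of 0.50 to 0.65 in Malt1_PD against Vector, 0.62 to 0.76 in Malt1_WT against Vector and -0.17 to -0.05 in Malt1_PD against Malt1_WT. Of the 8 other genes, 0 were called in each comparison with DESeq2 size factors, no filter, at least 10 counts in every library, DESeq2, limma-voom and the length trend removed, and in a fit of only the groups compared, which was not run for both forms together because it is the same fit. Same-numbered libraries deviated together between Malt1_WT and Vector (correlation of deviations 0.68) but not between Malt1_PD and Malt1_WT (0.03) or Malt1_PD and Vector (-0.01), so the numbers were not taken to pair the samples. With the replicate number as a block 0 of 8 were called in each comparison, Ago3 turned to 0.018 for both forms, Tex19.1 was called for both forms, and the genes called in the whole table were 20 higher and 32 lower for both forms, against 2 and 2 without the block. Leaving out 1 library gave 0 to 4 calls among the 8 genes in Malt1_PD against Vector, 0 to 2 in Malt1_WT against Vector and 0 to 4 for both forms, the highest counts all without Vector replicate 2. Without Vector replicate 1 and Malt1_WT replicate 1 it was 2, 0, 0 and 1.

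Directions of small differences turned when 1 library was left out, and the cause was not tested. In Malt1_PD against Vector the log2 fold changes then ranged from -0.0014 to 0.41 for Ago1, -0.19 to 0.67 for Ago2, -0.30 to 0.59 for Ago3, -0.024 to 0.37 for Dicer1, -0.14 to 0.22 for Drosha and -0.021 to 0.10 for Tarbp2. In Malt1_WT against Vector they ranged from -0.28 to 0.59 for Ago2, -0.47 to 0.42 for Ago3, -0.090 to 0.31 for Dicer1 and -0.082 to 0.27 for Drosha. In Malt1_PD against Malt1_WT they ranged from -0.13 to 0.34 for Ago2, -0.091 to 0.53 for Ago3, -0.013 to 0.16 for Dicer1, -0.11 to 0.0054 for Drosha and -0.028 to 0.21 for Dgcr8. For both forms against Vector they ranged from -0.24 to 0.63 for Ago2, -0.38 to 0.50 for Ago3, -0.057 to 0.34 for Dicer1 and -0.11 to 0.25 for Drosha, and Ago3 turned to 0.050 with limma-voom.

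Without Vector replicate 1 and Malt1_WT replicate 1, an alternative chosen after seeing the data, the log2 fold changes that turned were, in Malt1_PD against Vector, -0.00070 for Ago1, -0.19 for Ago2, -0.30 for Ago3, -0.023 for Dicer1 and -0.14 for Drosha. In Malt1_WT against Vector they were -0.068 for Ago2, -0.0093 for Dicer1 and -0.025 for Drosha. In Malt1_PD against Malt1_WT they were -0.13 for Ago2, -0.091 for Ago3 and -0.014 for Dicer1, and for both forms -0.13 for Ago2, -0.016 for Dicer1 and -0.081 for Drosha. Where 1 library stands for a group, it is assumed to vary like the others. The depth limits statements on germline genes at a few counts.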
